A study of Drosophila melanogaster with 2 samples.

Results

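Binding of the bHLH protein cato was described at 10 segment polarity genes of the Wingless and Hedgehog pathways, out of 13945 protein-coding genes on the main chromosome arms. The genes were listed by name: the ligand genes wg and hh, the receptor genes ptc and fz, the intracellular signalling genes arm and nkd, and the transcription factor genes pan, ci, en and inv. Every peak that overlapped a gene body or the 10 kb on either side of it was taken. The material was 1 group of whole Drosophila melanogaster embryos, 0 to 16 h old and of pooled sexes. They came from a transgenic line that stably expressed cato with GFP fused to its C-terminus, and chromatin was precipitated with an anti-GFP antibody in 2 biological replicates, numbered 1 and 3. The labels do not say which promoter drives the transgene, and no untagged or input library was analysed here. Each replicate list held 30000 peaks, and the list made by irreproducible discovery rate (IDR) analysis, which keeps peaks ranked alike in both replicates, held 2746. Each peak carried a signal value on the authors' scale and was ranked by it, with 1 as the strongest. Read depth is unknown from peak lists, and with 1 condition there was no contrast to test, so the values below are descriptions. In whole embryos, strong occupancy in a few cells and weak occupancy in many cannot be told apart.

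Segment polarity genes set the pattern inside each segment of the fly embryo. Cells that express the homeodomain factor engrailed secrete Hedgehog, the neighbouring row of cells answers by keeping wingless on, and Wingless in turn maintains engrailed, so that the pathways hold a boundary between them. The protein cato, "cousin of atonal", is a bHLH factor of the atonal family known from developing sense organs, and bHLH dimers bind the E-box, written CANNTG.

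Of the 10 genes, 4 had an IDR peak in the gene body or within 10 kb of it, namely fz, ptc, nkd and hh. The same held for 50.4% of all protein-coding genes, and for 58.6% of the 3937 protein-coding genes with a length between those of the shortest and the longest of the 10. The 12 IDR peaks at the 4 genes had signal values with a lowest of 72.11, a median of 104.2 and a highest of 250.8, against a lowest of 68.92, a median of 106.3 and a highest of 1100 over all 2746 IDR peaks. Among the strongest 2746 peaks of a single replicate, 4 of the 10 genes had one in replicate 1, against 50.7% of all protein-coding genes, and 4 had one in replicate 3, against 49.4%. These were the same 4 genes in both replicates. The IDR list was made from these replicates, so the counts are not independent of it. An IDR peak overlapped the gene body itself at 3 of the 10 genes, ptc, nkd and fz, against 14.6% of all protein-coding genes. An IDR summit lay within 500 bp of a gene's own start site at 1 of the 10, nkd, against 13.8%. At 2 of the 10, nkd with 5 and ptc with 4, the window held 4 or more IDR peaks, against 2.66% of all protein-coding genes. The 4 at ptc include 2 that overlap each other, which leaves 3 regions there when merged. The nkd window is 61.71 kb long, and the 2.66% is over genes of all lengths. The share with an IDR peak in the window was thus below that of all protein-coding genes, and the share with one in the gene body was above it. Which side of the background the 10 genes stood on therefore depended on the window. The bodies of ptc, nkd and fz are 15.57, 41.71 and 94.30 kb long, and a longer body has more room for a peak. The 14.6% is over genes of all lengths, and the part of gene length in the share in gene bodies was not tested. Of the 12 peaks, 11 were in the windows of 3 genes.

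The 201 bases around the strongest IDR summit of fz, of nkd and of hh show what lies under 3 kinds of site: a site deep in an intron, a gene's own promoter, and a promoter shared by neighbours of the named gene. They were read from RefSeq's copy of the dm6 assembly on the + strand, 5′ to 3′, with the summit at base 101. Capitals mark matches to the E-box CANNTG and to the GAGA motif GAGAG on either strand.
fz intron, chr3L:14303968-14304168: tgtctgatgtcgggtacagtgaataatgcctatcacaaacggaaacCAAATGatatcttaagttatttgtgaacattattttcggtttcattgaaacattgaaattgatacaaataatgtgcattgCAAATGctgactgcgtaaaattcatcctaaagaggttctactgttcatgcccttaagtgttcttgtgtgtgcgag
nkd promoter, chr3L:19045490-19045690: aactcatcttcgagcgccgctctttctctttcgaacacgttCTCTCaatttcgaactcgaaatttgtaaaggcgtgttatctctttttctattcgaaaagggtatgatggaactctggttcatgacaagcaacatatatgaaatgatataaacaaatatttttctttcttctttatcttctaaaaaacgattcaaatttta
Rassf and CenB1A promoter at the edge of the hh window, chr3R:23117967-23118167: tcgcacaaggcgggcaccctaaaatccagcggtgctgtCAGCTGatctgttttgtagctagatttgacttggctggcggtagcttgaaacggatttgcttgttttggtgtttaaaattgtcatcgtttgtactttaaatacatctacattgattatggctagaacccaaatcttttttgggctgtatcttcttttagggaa
The fz sequence held 2 E-boxes, both CAAATG, centred 51 bp before and 29 bp after the summit. The nkd sequence held no E-box, and its GAGA match, read as CTCTC on this strand, was centred 57 bp before the summit. The sequence beside hh held 1 E-box, CAGCTG, centred 59 bp before the summit. None of the 3 windows overlapped an annotated exon.

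The ligand gene wg, which encodes the Wnt protein Wingless, spans chr2L:7307159-7316265 on the + strand. It had no IDR peak in its window. Its strongest replicate 1 peak lay in an intron, 6552 bp from the start site, with a signal of 12.53 and rank 8399, and the replicate 3 peak at the same place had a signal of 18.59 and rank 8536. Its strongest replicate 3 peak lay upstream, 4188 bp before the start, with a signal of 23.77 and rank 5384, and met a replicate 1 peak of rank 13729. The wg window held 11 peaks of replicate 1 and 9 of replicate 3, and 5 from each list overlapped the other.

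An IDR peak that had wg as its nearest start site fell just outside the window, 11.10 kb upstream. This intergenic peak, chr2L:7295860-7296263, had a signal of 113.7 and rank 1207, with rank 851 in replicate 1 and rank 1860 in replicate 3. It lies in the cluster of the Wnt genes Wnt4, wg, Wnt6 and Wnt10. From 10 kb before Wnt4 to 10 kb after Wnt10, a stretch of 142.1 kb, there were 5 IDR peaks. The genome as a whole held 0.205 IDR peaks per 10 kb, and whether 5 in this stretch is unusual was not tested. Besides the peak upstream of wg, they were an intronic Wnt4 peak with signal 80.96, a peak 4491 bp upstream of Wnt4 with signal 107.5, a peak 354 bp upstream of the Wnt6 start with signal 102.0, and an intronic Wnt10 peak with signal 76.07. The nearest start to the intronic Wnt4 peak was that of CG31909, 746 bp away. For the intronic Wnt10 peak it was that of ninaC, 1409 bp away. No IDR summit lay between the peak upstream of wg and the Wnt6 promoter peak, 37.30 kb apart. Of the 2740 gaps between neighbouring IDR summits in the genome, 32.4% were longer than that one, and the median was 18.46 kb. The gap holds the whole wg window of 29.11 kb, which had no IDR peak, so it was bound to exceed that median.

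The other ligand gene, hh, spans chr3R:23128169-23141906 on the − strand and encodes Hedgehog. Its only IDR peak, chr3R:23117865-23118268, overlapped the window by its edge, and its summit lay 10102 bp beyond the 3′ end of hh. That summit was 136 bp from a start site of Rassf, between Rassf and CenB1A, and its sequence is the third printed above. With the summit required to lie inside the window, hh had no IDR peak, and 3 of the 10 genes kept one, against 49.9% of all protein-coding genes. The peak had a signal of 94.30 and IDR rank 1698, with a signal of 29.00 and rank 1776 in replicate 1 and a signal of 47.32 and rank 1798 in replicate 3. Within hh itself, the strongest replicate 3 peak was intronic, 8215 bp from the start, with a signal of 29.11 and rank 3855, and no replicate 1 peak overlapped it. The strongest replicate 1 peak within hh was also intronic, 10728 bp from the start, with a signal of 10.92 and rank 11936, and it met a replicate 3 peak of rank 17599. Both were nearer to the start of CG31457 than to that of hh, at 5710 bp for the replicate 3 peak and 3197 bp for the replicate 1 peak. The hh gene body thus held peaks in both replicates, but the best of them differed in place and fell outside the strongest 2746 of either list.

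The receptor gene ptc encodes Patched, the Hedgehog receptor, which Hedgehog signalling itself turns on. It spans chr2R:8649649-8665223 on the + strand and had 4 IDR peaks in its window. The strongest, chr2R:8644207-8644610, was intergenic, 5240 bp upstream of the ptc start, with a signal of 185.6 and IDR rank 445. In replicate 1 it had a signal of 61.91 and rank 417, and in replicate 3 a signal of 86.21 and rank 535. A weaker IDR peak, chr2R:8652192-8652595, lay in a ptc intron 2745 bp after the start, with a signal of 97.44 and rank 1595. Its replicate 1 summit was 110 bp away from the IDR summit, with rank 1821, while the replicate 3 summit coincided with it, at rank 2362.

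The other 2 IDR peaks of the ptc window lay in an intron of the neighbouring gene Acsl, a long-chain acyl-CoA synthetase gene. Their signals were 111.0, at rank 1263, and 72.11, at rank 2586. They overlapped each other, and the strongest replicate peaks under both were the same, of rank 1666 in replicate 1 and rank 929 in replicate 3. Those summits lay 12 bp and 53 bp from the stronger IDR summit. Nearer to the weaker IDR summit were weaker replicate peaks, 3 bp away with rank 21436 in replicate 1 and 51 bp away with rank 11851 in replicate 3. Merged, the overlapping IDR peaks count as 1 region, which leaves 3 regions in the ptc window. A further replicate 1 peak in the same intron, of rank 2052, met a replicate 3 peak of rank 4646 and was not in the IDR list. At ptc itself, then, the IDR list held an upstream site and an intronic site.

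The receptor gene fz encodes Frizzled, a receptor for Wingless that also acts in planar cell polarity. It is the longest of the 10, at chr3L:14274343-14368639 on the + strand, a span of 94.30 kb. Its strongest IDR peak, chr3L:14303866-14304269, lay in an intron 29725 bp after the start and was the strongest at any of the 10 genes, with a signal of 250.8 and rank 232. The nearest start site to that peak was not the fz start but that of CG13482, 25278 bp from the summit. In replicate 1 that peak had a signal of 69.60 and rank 324, and in replicate 3 a signal of 126.0 and rank 236. Its summit carries the first sequence printed above. Across all protein-coding genes, 10.3% had a stronger best peak in replicate 1 and 7.58% in replicate 3.

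The other fz IDR peak, chr3L:14272404-14272807, was intergenic and 1737 bp upstream of the start, with a signal of 176.8 and rank 489. It had rank 705 in replicate 1 and rank 489 in replicate 3. A pair of peaks inside fz reached the strongest 2746 of replicate 3 without entering the IDR list. They lay 90541 bp and 64754 bp after the start, with signals of 42.31 and 38.33 and ranks 2167 and 2530, and met replicate 1 peaks of ranks 3622 and 5266. Their nearest start sites were those of CG13481, 4823 bp away, and CG13482, 9751 bp away. The fz window held 44 peaks of replicate 1 and 55 of replicate 3, or 3.85 and 4.81 per 10 kb, and 37 and 50 of their summits lay in the gene body.

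The gene nkd encodes naked cuticle, a Dishevelled-binding antagonist of Wingless signalling that Wingless itself induces. It spans chr3L:19003741-19045449 on the − strand and had 5 IDR peaks in its window, the most of the 10. The strongest, chr3L:19045388-19045791, lay at its promoter, 141 bp upstream of the start, with a signal of 151.8 and rank 656. It had a signal of 45.03 and rank 811 in replicate 1 and a signal of 75.41 and rank 728 in replicate 3. No other of the 10 genes had an IDR summit within 500 bp of its own start. This is the second sequence printed above.

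A chain of 3 more IDR peaks ran along the nkd body. The one nearest the start was intronic, 2743 bp after it, with a signal of 123.9 and rank 1016. The next, 12072 bp after the start, lay in an exon of the long non-coding RNA gene lncRNA:CR45940, which sits inside nkd. It had a signal of 82.12 and rank 2098, and by the strongest replicate peaks under it, its ranks were the farthest apart of the 12, at 5217 in replicate 1 and 1292 in replicate 3. The one farthest in was intronic, 20436 bp after the start, with a signal of 93.94 and rank 1710. The last IDR peak of the window was beyond the 3′ end of nkd, 7432 bp away and 500 bp from a start of CG18135, with a signal of 81.36 and rank 2120. That distance sits at the limit used here for a promoter, and the replicate 1 summit, 515 bp away, was classed as intronic.

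The gene arm encodes Armadillo, the fly beta-catenin that carries the Wingless signal to the nucleus. It spans chrX:1891401-1900646 on the − strand and had no IDR peak. Its best replicate 1 peak, with a signal of 20.88 and rank 2984, was at the promoter of the neighbour Edem1 and met a replicate 3 peak of rank 6833. Its best replicate 3 peak lay within 231 bp of an arm start site, with a signal of 28.07 and rank 4107, and met no replicate 1 peak. The single pair that was found in both replicates within the arm body lay 184 bp from a start site, with rank 15617 in replicate 1 and rank 19402 in replicate 3. The window is crowded, with start sites of 7 other protein-coding genes. The nearest IDR summit was 11.69 kb from arm, at the promoter of CG14818.

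The transcription factor gene pan encodes TCF, the DNA-binding partner of Armadillo, and ci encodes Cubitus interruptus, the Gli factor of the Hedgehog pathway. Both lie on chromosome 4, with pan at chr4:69326-114270 on the + strand and ci at chr4:47710-57041 on the − strand. Their windows overlap by 7716 bp. Neither had an IDR peak. The best pan peak was at the promoter of the ribosomal protein gene RpS3A, with a signal of 20.16 and rank 3154 in replicate 1 and a signal of 26.31 and rank 4560 in replicate 3. The same replicate 3 peak was the best in the ci window, which it overlapped by its edge, with its summit 10192 bp upstream of ci. A pair of peaks nearer to pan, 772 bp upstream by the replicate 1 summit, had rank 5094 in replicate 1 and rank 7394 in replicate 3.

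The best replicate 1 peak of the ci window was at the promoter of PlexB, a semaphorin receptor gene, with a signal of 18.33 and rank 3720, and it met a replicate 3 peak of rank 6510. Near ci itself, a peak 527 bp upstream in replicate 1 had rank 5317, and its replicate 3 partner, 384 bp upstream, had rank 8286. The nearest IDR summit was 310.6 kb from pan and 367.8 kb from ci, and it was the same peak for both, with a signal of 202.4 and rank 373. Chromosome 4 as a whole held 6 IDR peaks, 0.0445 per 10 kb, against 0.205 over all arms. Replicate lists did not share that sparsity: chromosome 4 held 2.08 peaks per 10 kb in replicate 1 and 3.39 in replicate 3, against 2.24 over all arms in each. Of its peaks, 11 of 281, or 3.91%, were among the strongest 2746 of replicate 1, and 8 of 457, or 1.75%, among those of replicate 3, against 9.15% of each whole list.

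The homeodomain genes en and inv, neighbours that mark the posterior cells of each segment, lie at chr2R:11524006-11528210 on the − strand and chr2R:11474465-11509695 on the + strand. Neither had an IDR peak, and their windows overlap by 5690 bp. The best en peak of replicate 1 lay 6477 bp upstream, with a signal of 15.65 and rank 4978, and met no replicate 3 peak. The best en peak of replicate 3 lay 8100 bp upstream, with a signal of 17.67 and rank 9555, and met a replicate 1 peak of rank 26317. A replicate 3 peak with rank 15913 had its summit 11 bp from the en start, and no replicate 1 peak overlapped it. The best inv peaks were an intronic one of rank 6340 in replicate 1 and an upstream one of rank 7659 in replicate 3, and neither met a peak of the other list.

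No IDR summit fell in the 143.0 kb around en and inv, between one near E(Pc) and one near tou. Of all 2740 gaps between neighbouring IDR summits, 6.61% were longer. The gap held 24 peaks of replicate 1, of which 2 were among the strongest 2746, and 32 of replicate 3, of which 0 were. The gaps around hh and arm, at 57.59 kb and 60.54 kb, were exceeded by 22.6% and 21.5% of all gaps. All these gaps were looked at because the windows held no IDR summit, so each was bound to be longer than its window. The shares of longer gaps therefore do not show whether the gaps are unusual for such genes.

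**Figure D1:**
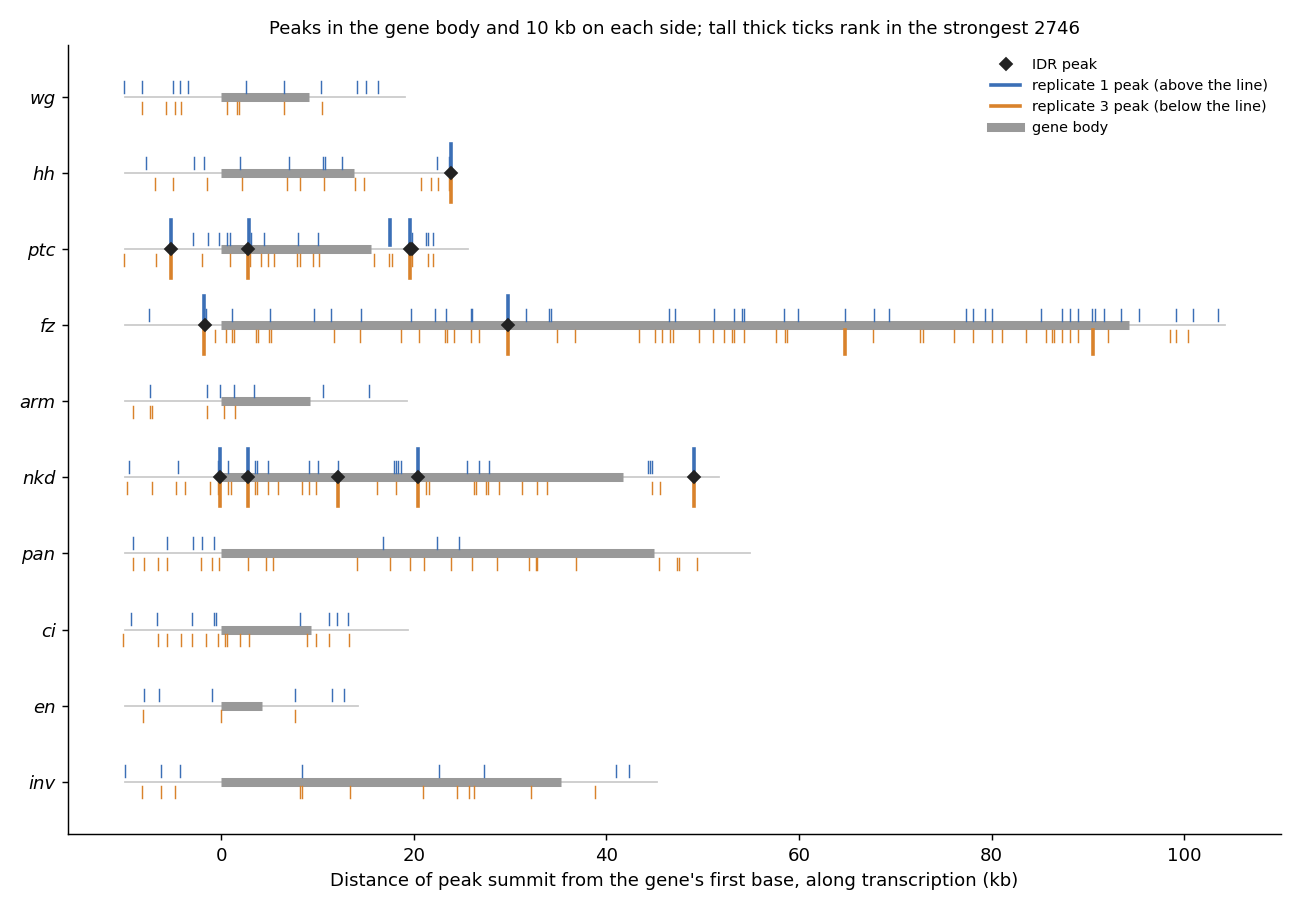
Summit positions of all listed peaks in the window of each gene, in kb from the gene's first base along transcription. Diamonds are IDR peaks, ticks above the line are replicate 1 peaks and ticks below it replicate 3 peaks, tall where the rank is within the strongest 2746. The 12 diamonds sit at hh, ptc, fz and nkd, and the 6 other genes have short ticks throughout.

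The genes were ordered by the ranks of their strongest peak in the 2 replicates. The order began with fz, with ranks 324 and 236 in replicates 1 and 3. After it came ptc, with 417 and 535, nkd, with 811 and 728, and hh, with 1776 and 1798, the hh peak being the one at the promoter of its neighbours. The ranges of these 4 genes overlapped neither one another nor those of the other 6. These 4 are the genes with an IDR peak, and that list keeps peaks ranked alike in both replicates. High and close ranks were therefore nearly set in advance for them. How often such ranges stay apart over all genes was not counted. The best rank is also taken over windows of unlike length, from 24.20 kb at en to 114.3 kb at fz. The next in the order were arm, with 2984 and 4107, pan, with 3154 and 4560, and ci, with 3720 and 4560, whose ranges overlapped one another. The rank of 4560 is that of 1 peak at the RpS3A promoter, so the ranges of pan and ci were bound to meet. The replicate 1 peaks behind the ranks of arm, pan and ci were also at promoters of neighbours, Edem1, RpS3A and PlexB. The last were en, with 4978 and 9555, inv, with 6340 and 7659, and wg, with 8399 and 5384, whose ranges overlapped one another and began beyond those of arm, pan and ci. The median best rank of the 10 genes was 3069 in replicate 1, against 2684 over all protein-coding genes and 1994 over those of like length. In replicate 3 it was 4334, against 2805 and 2093.

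**Figure D2:**
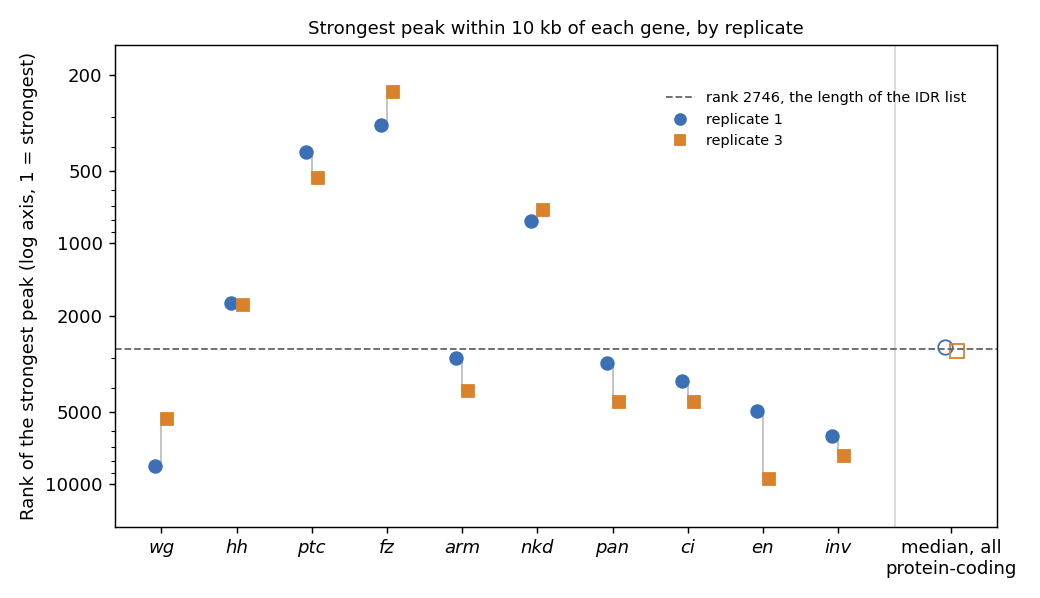
Rank of the strongest peak in the gene body or within 10 kb for each gene, on a log axis with the strongest at the top, in replicate 1 (circles) and replicate 3 (squares). Open symbols on the right are the medians over all protein-coding genes, and the dashed line is rank 2746. The genes fz, ptc, nkd and hh lie above the line in both replicates, and the 6 others below it.

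Peak density was set beside that of the genome. Counted once each over the joined windows of 464.0 kb, there were 12 IDR peaks, 0.259 per 10 kb against 0.205 over the genome. There were 140 peaks of replicate 1, 3.02 per 10 kb against 2.24, and 189 of replicate 3, 4.07 per 10 kb against 2.24. Peaks of 1 list often overlap each other, and when these were merged the windows held 121 regions of replicate 1 and 163 of replicate 3, or 2.61 and 3.51 per 10 kb, against 2.07 and 1.98 over the genome. Of the replicate 1 peaks, 11 of 140, or 7.86%, ranked among the strongest 2746, against 9.15% of the whole list. Of the replicate 3 peaks, 13 of 189, or 6.88%, did so, also against 9.15%. Among the strongest 10000 were 57 replicate 1 peaks, or 40.7%, and 63 replicate 3 peaks, or 33.3%, against 33.3% of each whole list.

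Of the 140 replicate 1 peaks near these genes, 91 overlapped a replicate 3 peak by at least 1 bp, which is 65.0% with a 95% Wilson interval of 56.8 to 72.4, against 44.8% of the whole list. The interval covers counting error only and treats peaks as independent, which overlapping peaks are not. In the other direction 91 of 189 replicate 3 peaks, 48.1% with an interval of 41.1 to 55.2, overlapped a replicate 1 peak, against 46.8% of the whole list. With overlapping peaks merged, the shares were 61.2% against 43.4% for replicate 1 and 45.4% against 45.3% for replicate 3. By strength, all 11 replicate 1 peaks within the strongest 2746 were shared, against 99.3% of the list. From there to rank 10000, 33 of 46 were, or 71.7% against 61.3%, and beyond rank 10000, 47 of 83 were, or 56.6% against 31.4%. The replicate 3 shares beyond rank 10000 were 36.5% and 33.5%. The density of replicate 3 peaks in these windows, 4.07 against 2.24 per 10 kb, moves with this share, and its part in it was not tested.

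Sharing differed from gene to gene. At nkd, 22 of 24 replicate 1 peaks met a replicate 3 peak, and at ptc 14 of 17 did. At fz, 27 of 44 did, at hh 8 of 11, at ci 6 of 9, at wg 5 of 11, at pan 4 of 8, at arm 3 of 7, at en 2 of 6 and at inv 2 of 8. Several peaks can meet the same peak of the other list, and many of the counts are small. Merged, the counts were 16 of 17 at nkd, 10 of 13 at ptc and 23 of 39 at fz. They were 6 of 9 at hh and 5 of 8 at ci, and were unchanged at wg, pan, arm, en and inv. Over the 91 replicate 1 peaks that met a replicate 3 peak, the Spearman correlation of the signals was 0.47, against 0.62 over the 13453 such peaks of the genome. With overlapping peaks merged, a step chosen after seeing the data, it was 0.63 over 74 regions, against 0.67 over 12050. The points share libraries and any control, and the values are a description.

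**Figure D3:**
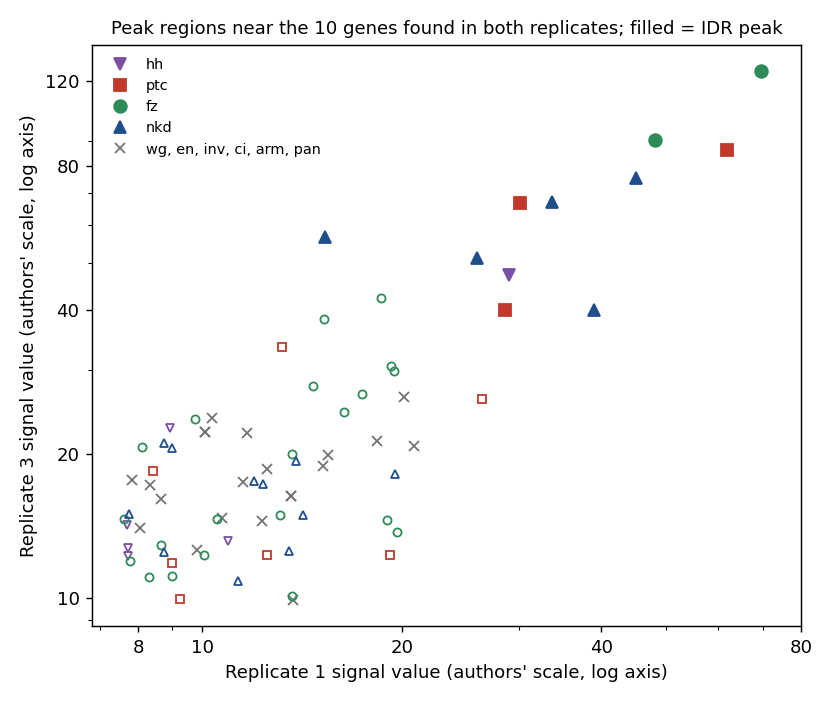
Signal values, on the authors' scale and log axes, of merged peak regions near the 10 genes that were found in replicate 1 (x axis) and replicate 3 (y axis). Filled symbols hold an IDR peak. The strongest fz region, at 69.60 and 126.0, lies farthest up and right, and the filled nkd symbol at 15.32 on the x axis is the peak in the nested non-coding gene.

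By location, 3 of the 12 IDR summits were within 500 bp of a start site of any gene, or 25.0% against 54.8% of all IDR peaks, and 1 of the 3 was at the promoter of the named gene itself. Introns held 6 of 12, against 31.0% of all IDR peaks, and intergenic sequence held 2, 16.7% against 12.0%. The remaining 1 lay in the non-coding exon within nkd. Of the 6 intronic peaks, 2 lay in an intron of the neighbour Acsl rather than of a named gene, and these overlap each other. Promoters held 21 of the 140 replicate 1 peaks, against 24.4% of that list, and 20.1% of the 189 replicate 3 peaks, against 30.3%. In replicate 1, introns held 51.4% against 39.7%, and in replicate 3, 56.1% against 39.3%. Much of the window length is the intronic sequence of fz, nkd, pan and inv, and the part of this in the shares was not tested.

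In the 101 bp centred on each summit, an E-box (CANNTG) was present in 2 of the 12 IDR peaks, 16.7% against 32.7% of all IDR peaks. They were the intronic fz peak and the weaker of the overlapping Acsl peaks, whose E-box was CAGCTG, a form present in 2.99% of all IDR windows. No match was found in the 12 windows, on either strand, for 8 other motifs: CATATG, found in 4.12% of all IDR windows, TATCGATA of the factor DREF in 1.57%, CGATAG of BEAF in 3.86%, GAGAG in 8.23%, the Zelda motif CAGGTAG in 0.328%, the TCF motif CTTTGA in 6.15%, the Ci motif GGGTGGTC in 0.0364% and the homeodomain core TAATTA in 10.6%. CATATG and CAGCTG are themselves E-boxes, so the counts overlap. In 201 bp, 5 of the 12, or 41.7%, held an E-box, against 57.5%, and 2 of the 12, or 16.7%, held CAGCTG, against 7.54%. In those longer windows GAGAG was present in 2 of the 12, against 20.9% of all IDR windows. CATATG was present in 1, against 7.21%, CGATAG in 1, against 8.74%, CTTTGA in 1, against 11.8%, and TAATTA in 1, against 19.8%. TATCGATA, CAGGTAG and GGGTGGTC were present in 0. GC content in the 101 bp had a median of 32.2% in the 12 peaks and 30.7% over all IDR peaks. An absence says only that the letters were not in the 12 windows of that length.

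Other genes of the same pathways were counted in the same way, from lists chosen with earlier results of these data known. Of 26 other Wingless pathway genes, 21 had an IDR peak in the same kind of window, or 80.8%, against 50.4% of all protein-coding genes, and 6 had a summit within 500 bp of their own start, against 13.8%. The highest signal in that list, 532.5 at rank 27, was at gish, a casein kinase gene, 158 bp upstream of its start. Next came pygo, a nuclear cofactor of Armadillo, with 321.7 at the promoter of its neighbour CG1635, and CkIalpha, a kinase of the beta-catenin destruction complex, with 233.3 at a site nearer to Tis11. Wnt6 and Wnt4, beside wg, were among the 21.

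Of 18 other Hedgehog pathway genes, 12 had an IDR peak, or 66.7%, against 50.4% of all protein-coding genes. A summit within 500 bp of their own start was found at 4 of the 18, dlp, sgg, rdx and nej, against 13.8%. The highest signal, 640.6 at rank 16, was 566 bp upstream of Gprk2, a kinase of Smoothened, and nearest to the start of PNPase. The list shares CkIalpha with the Wingless list, and next came rdx, an adaptor for Ci degradation, with 7 IDR peaks, the strongest of 232.2 at its own promoter. The 5 genes on both lists, dally, dlp, slmb, CkIalpha and sgg, all had an IDR peak. They are counted among the 12 of the 18 here and again in the Wingless share. The Hedgehog share is therefore not separate from the Wingless one, and it leans on these 5 genes. The 50.4% is over genes of all lengths, and the part of gene length in the shares of both lists was not tested.

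Of 11 other transcription factor genes of segment polarity or pair-rule patterning, 4 had an IDR peak, or 36.4%, against 50.4% of all protein-coding genes. A summit within 500 bp of their own start was found at 0 of the 11, against 13.8%. The 4 genes with a peak were slp1 and slp2, which share their strongest peak of signal 264.8 between them, mid with 142.6 and odd with 73.65. The proteins of slp1 and slp2 are of the forkhead class, that of mid is of the T-box class, and that of odd has zinc fingers. Like pan, ci, en and inv, the other 7 genes of the list had no IDR peak.

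**Figure D4:**
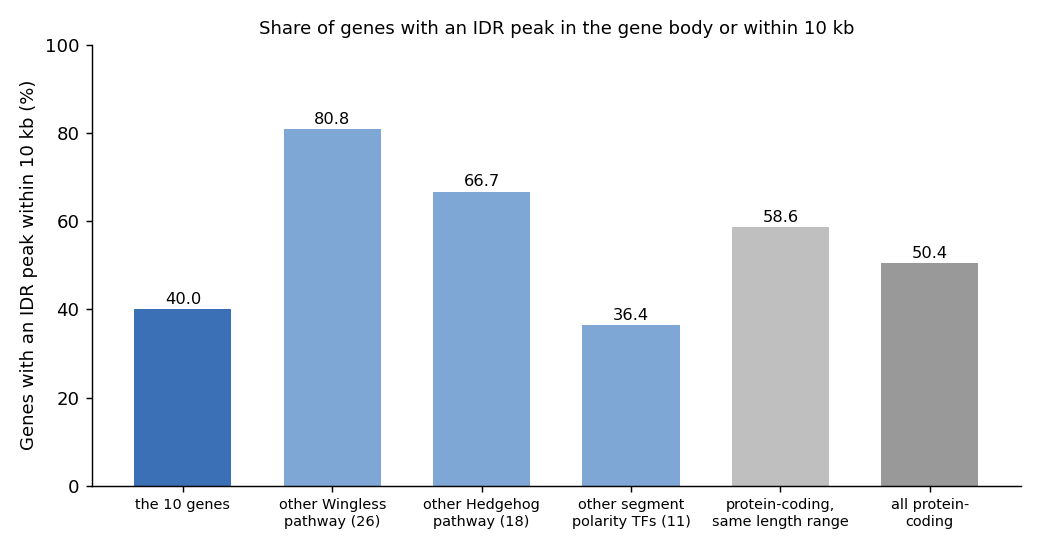
Percent of genes with at least 1 IDR peak in the gene body or within 10 kb, for the 10 genes, 3 other pathway lists, the protein-coding genes in the length range of the 10, and all protein-coding genes. The 10 genes, of which 4 had a peak, stand below all protein-coding genes at 50.4%, and the other Wingless genes stand at 80.8%.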

How the data were processed

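ChIP-seq peak lists of 2 biological replicates were used as the authors deposited them. Column 7 of each list is a signal value made by the authors' peak caller, and peaks were ranked by it within each list only. The sources used here do not name the aligner, the peak caller or the IDR threshold. The lists used are on dm6, per the labels, while dm3 lists and a second pooled dm6 list were left out. Gene models were those of Ensembl 115 for BDGP 6.54, and bases were read from RefSeq's copy of Release 6. Peaks were assigned by an overlap of at least 1 bp with the gene body and 10 kb on each side; promoters lay within 500 bp of a start. Overlaps, ranks and motifs were computed with scipy 1.17.1, numpy 2.4.6 and Python 3.11.15, and the overlap code was tested on simulated data. No test was run. The labels call the replicates biological, and the part of technical spread between them is unknown. The 10 genes, gene lists and motifs were chosen with earlier results of these data known. All 10 genes are named, with the 3 strongest of each other list and, in the main setting, any gene in a count of 5 or fewer. Other neighbours are named only to place a peak, after values were seen. Alternatives were single replicates, a stricter threshold, other windows, overlaps and promoter sizes, and merged peaks.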

Additional observations from a re-analysis of the deposited data

How the results depend on the processing

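The 10 genes with an IDR peak numbered 4 in the main setting, against 50.4% of all protein-coding genes, and 3 to 6 under the 9 alternatives to it, against 14.6% to 66.6%. The 10 stood above the background in gene bodies alone, with 3 against 14.6%, with a 2 kb flank, with 3 against 25.9%, and by nearest start, with 4 against 14.9%. They stood below it in the main setting and in the 6 others. With a 2 kb flank, 1 gene fewer would have put the 10 below the background. With the stronger 50% of IDR peaks, 3 stood against 33.0%, and 1 gene more would have put them above. The side taken at such settings therefore does not show a difference from all protein-coding genes. These backgrounds are over genes of all lengths, and the part of gene length was not tested. The strongest 2746 peaks of either replicate alone gave the same 4 genes, with 13 peaks from replicate 3 and 11 from replicate 1. The IDR list was made from these 2 replicates, so this outcome was nearly set in advance and is no separate support. The gene hh was lost when the summit had to lie inside the window, with the stronger 50% of IDR peaks, in gene bodies alone and with a 2 kb or 5 kb flank, while ptc, nkd and fz kept a peak in each of these. A 20 kb flank added wg and arm. Assigning each peak to its nearest start gave 4 genes, with wg in place of hh. The number of IDR peaks was 6 with the stronger 50%, 6 in gene bodies alone and 7 with a 2 kb flank. The other Wingless genes with an IDR peak numbered 11 in gene bodies alone and 11 by nearest start, the other Hedgehog genes 6 and 5, and the other transcription factor genes 0 in gene bodies and 2 with a 2 kb or 5 kb flank. The share of all protein-coding genes also dropped in those settings, to 14.6% in gene bodies, 14.9% by nearest start, 25.9% with 2 kb and 37.1% with 5 kb. The share of replicate 1 peaks found again was 53.6% with a reciprocal overlap of 50% and 54.3% with summits within 200 bp, and that of replicate 3 was 38.1% and 38.6%. The shares over the whole lists under these stricter rules are not given here. The whole-list shares of the main setting cannot stand in for them. With the stronger 50% of each list the windows held 77 peaks of replicate 1 and 97 of replicate 3. With 100 bp on each side of the summit, 5 IDR peaks held an E-box. These follow from smaller windows, stricter overlaps, shorter lists or longer sequence. Merging overlapping peaks was chosen after seeing the data. No paired analysis was possible because the study has 1 group. Read depth is unknown, and the 2 replicates limit how firmly a rank near the threshold can be placed.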
